A study of Mus musculus with 6 samples.

Results

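Blood-nerve-barrier endothelial cells of the young adult mouse sciatic nerve were described from single-cell RNA sequencing at postnatal day 60 (P60), with endothelial cells of the newborn nerve (P1) beside them. A cell counted as a member of the barrier-gated group when it came from a P60 library, had 500 to 5000 detected genes and met a set of limits on raw unique molecular identifiers (UMIs, counted RNA molecules). At least 3 UMIs of the endothelial genes Pecam1, Cldn5 and Cdh5 together and at least 2 of Slco1a4, Lef1 and Degs2 together were required. Cd300lg and the immune gene Ptprc had to be at 0, the mural genes Pdgfrb and Rgs5 together at 2 UMIs or fewer, and the fibroblast gene Dcn below 10. These limits chose 723 of the 12602 P60 cells (184, 256 and 283 in replicates 1, 2 and 3), out of 1622 cells in all that passed the endothelial limits with no condition on Slco1a4, Lef1, Degs2 or Cd300lg. The 379 endothelial cells with at least 2 UMIs of Cd300lg (116, 149 and 114) served as the comparison, and the remaining 520 belonged to neither group. Because the members were chosen by measured UMIs, the 11 genes of the rule are described and were not tested, and a gene that varies with them across cells was bound to differ between the groups.

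The series holds 3 10x Chromium libraries at P60 and 3 at P1, each labelled as a biological replicate and made from its own cell suspension of nerves of male and female mice, with 24337 cells of 500 to 5000 genes over both ages. All mice were P0Cre-/+ : ReYFP Tg/+ : βAct-DsRed Tg/+ on the C57bl/6J background. Cre is driven there by the myelin protein zero promoter and switches on YFP in Schwann cells, and DsRed stands under a ubiquitous actin-based promoter, so that DsRed-positive sorting took cells of any type. At P1 only, part of the YFP-positive Schwann cells were removed in the sort. Dissociation was enzymatic and mechanical, the vessels had not been perfused, and no separate label identifies a vessel or a nerve layer, so the location of the barrier-gated cells was not measured.

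Endothelial cells of endoneurial vessels form, with the perineurium, the blood-nerve barrier, which keeps plasma constituents out of the space around the axons. Like brain endothelium, they are joined by tight junctions containing claudin-5, show little transport by vesicles and few fenestrations, carry glucose through GLUT1 (encoded by Slc2a1) and return lipophilic molecules to the blood with ATP-driven efflux pumps. In brain endothelium this state depends on canonical Wnt signalling, in which beta-catenin acts with TCF and LEF transcription factors. Vessels outside the barrier, such as those of the epineurium, are permeable, and their capillaries often carry PLVAP, the protein of the diaphragms across fenestrae and caveolae, and proteins for the uptake of fatty acids.

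The 5 genes by which the group was named are given with their place in the genome (GRCm38, GENCODE M21), followed by stretches upstream of their starts. Slco1a4, an organic anion carrier, lies on chromosome 6 at 141805440 to 141856199 on the minus strand. Lef1, a transcription factor of the Wnt pathway, lies on chromosome 3 at 131110471 to 131224356 on the plus strand and overlaps Gm42449 on the same strand. Degs2, a sphingolipid desaturase and hydroxylase, lies on chromosome 12 at 108678711 to 108702315 on the minus strand. Slc2a1 lies on chromosome 4 at 119108711 to 119137983 and Cldn5 on chromosome 16 at 18776847 to 18778262, both on the plus strand, and Mir1957a overlaps Slc2a1 on the same strand. The counts came from a kit that reads the 3′ ends of transcripts.

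Upstream sequences of these 5 genes and of 3 others are shown because Lef1 is itself one of the selecting genes and because endothelial genes are widely controlled by ETS factors. Each stretch runs from 250 to 51 bases before the start listed by RefSeq (GRCm38.p6) and is written 5′ to 3′ on the strand of the gene. Capitals mark a TCF/LEF motif (CTTTG followed by AA, AT, TA or TT) or the ETS core GGAAG, on either strand. Slco1a4 (chr6:141856271-141856470), Lef1 (chr3:131110047-131110246), Degs2 (chr12:108702357-108702556), Slc2a1 (chr4:119108495-119108694) and Cldn5 (chr16:18776597-18776796) come first. Paqr5 (chr9:62026841-62027040, minus strand), Bmx (chrX:164258244-164258443, minus strand) and Spock2 (chr10:60106007-60106206, plus strand) follow.
Slco1a4: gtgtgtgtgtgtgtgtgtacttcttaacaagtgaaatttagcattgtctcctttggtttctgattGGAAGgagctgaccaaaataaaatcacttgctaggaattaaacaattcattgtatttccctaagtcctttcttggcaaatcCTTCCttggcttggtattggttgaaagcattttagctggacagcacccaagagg
Lef1: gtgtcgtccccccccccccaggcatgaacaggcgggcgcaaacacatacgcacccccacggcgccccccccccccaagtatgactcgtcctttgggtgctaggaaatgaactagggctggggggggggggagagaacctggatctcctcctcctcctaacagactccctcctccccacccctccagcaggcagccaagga
Degs2: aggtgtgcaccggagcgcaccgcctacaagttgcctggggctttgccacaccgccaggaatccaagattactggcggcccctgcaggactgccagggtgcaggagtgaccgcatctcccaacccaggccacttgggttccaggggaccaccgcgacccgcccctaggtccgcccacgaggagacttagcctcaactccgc
Slc2a1: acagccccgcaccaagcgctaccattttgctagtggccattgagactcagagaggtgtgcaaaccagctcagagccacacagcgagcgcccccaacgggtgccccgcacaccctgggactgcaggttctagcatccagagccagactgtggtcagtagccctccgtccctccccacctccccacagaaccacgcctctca
Cldn5: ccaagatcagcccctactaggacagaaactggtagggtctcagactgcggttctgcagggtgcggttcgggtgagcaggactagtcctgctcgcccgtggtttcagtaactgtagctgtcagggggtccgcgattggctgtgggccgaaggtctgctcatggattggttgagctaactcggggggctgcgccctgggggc
Paqr5: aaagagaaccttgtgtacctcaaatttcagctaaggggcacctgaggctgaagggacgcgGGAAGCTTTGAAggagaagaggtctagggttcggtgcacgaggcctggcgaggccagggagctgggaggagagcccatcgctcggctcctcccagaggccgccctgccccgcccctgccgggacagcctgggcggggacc
Bmx: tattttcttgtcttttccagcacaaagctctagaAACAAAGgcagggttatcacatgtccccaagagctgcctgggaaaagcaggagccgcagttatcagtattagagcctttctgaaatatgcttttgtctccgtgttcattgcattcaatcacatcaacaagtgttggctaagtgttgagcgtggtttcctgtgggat
Spock2: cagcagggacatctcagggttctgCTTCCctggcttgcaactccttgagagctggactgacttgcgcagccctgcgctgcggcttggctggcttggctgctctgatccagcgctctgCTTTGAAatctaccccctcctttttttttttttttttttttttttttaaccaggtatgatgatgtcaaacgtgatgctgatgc
None of the 5 stretches of the naming genes held a TCF/LEF motif, and that of Slco1a4 held 2 ETS cores. Lef1 has 4 listed starts, and the stretch of 1 of them held a TCF/LEF motif. Among the 15 genes outside the rule with the largest rise in barrier-gated cells, 11 had a stretch of this kind, and the 3 with a TCF/LEF motif were Paqr5, Bmx and Spock2. In Paqr5 the motif directly follows an ETS core. The share over all 32851 stretches of the same length was 12.4% for TCF/LEF and 55% for ETS. Among the genes tested, 9.38% of the 736 genes higher in barrier-gated cells and 7.86% of the 751 lower ones held a TCF/LEF motif upstream of the first listed start, against 8.72% of all 6639 with a stretch.

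Barrier-gated cells made up 46.1%, 44.2% and 43.9% of the endothelial cells in the 3 P60 libraries, a mean of 44.8% ± 1.19 (SD, n = 3), and 5.71% ± 0.424 of all cells. The share of endothelial cells hardly moved between libraries, while the Cd300lg-gated share, 24.2% ± 5.84, varied more. At P1, 2 of 699 endothelial cells passed the same limits (1 of 208, 1 of 256 and 0 of 235). The selecting genes were picked with their difference between the ages known, so nothing is read from this low number. Over all genes, the summed counts of the 2 groups reached 4540641 UMIs in barrier-gated and 2065542 in Cd300lg-gated cells. Median UMIs per cell were 5564, 6150.5 and 4627 in barrier-gated and 4349.5, 4493 and 4239 in Cd300lg-gated cells, so the members were the more deeply counted group in every library. Median mitochondrial shares were 3.52%, 3.70% and 4.48% against 2.85%, 3.38% and 3.45%.

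P60 replicate 3 stood apart from the other libraries. In it 16.2% of all cells exceeded 10% mitochondrial UMIs, against 2.97% and 4.84% in replicates 1 and 2, and its barrier-gated sum correlated less with those of replicates 1 and 2 (Pearson's r over genes, log2 scale, 0.951 and 0.953) than these did with each other (0.979). Results are given without it where that ends a call. Between 27 and 29 cell barcodes were shared by any pair of P60 libraries, and 1 of them marked a barrier-gated cell in both.

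The genes that chose the members had the following levels, in UMIs per 1000000 UMIs (CPM) of each library's summed cells. Slco1a4 measured 1286, 1170 and 1367 CPM in barrier-gated and 449, 371 and 251 CPM in Cd300lg-gated cells of replicates 1, 2 and 3. Lef1 measured 220, 196 and 194 against 53.6, 50.3 and 26.9 CPM, and Degs2 310, 292 and 217 against 88.8, 65.5 and 32.2 CPM. Cldn5, which counted only toward the endothelial limit, measured 7137, 6691 and 5579 against 2197, 2198 and 1992 CPM. The groups did not overlap in any of the 4, and since these genes set the groups, nothing is read from that. Pecam1 and Cdh5, the other endothelial genes of the rule, were lower in the barrier-gated cells, at 748, 644 and 733 against 1000, 1032 and 1033 CPM and 393, 389 and 445 against 502, 521 and 598 CPM. In P1 endothelial cells, gated with no limit on Slco1a4, Lef1 or Degs2, these averaged 3.38, 0.736 and 0.192 CPM, while Cldn5 averaged 2155 CPM. The age contrast had been seen when Slco1a4, Lef1 and Degs2 were picked, so their low P1 levels followed from that choice.

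**Figure D1:**
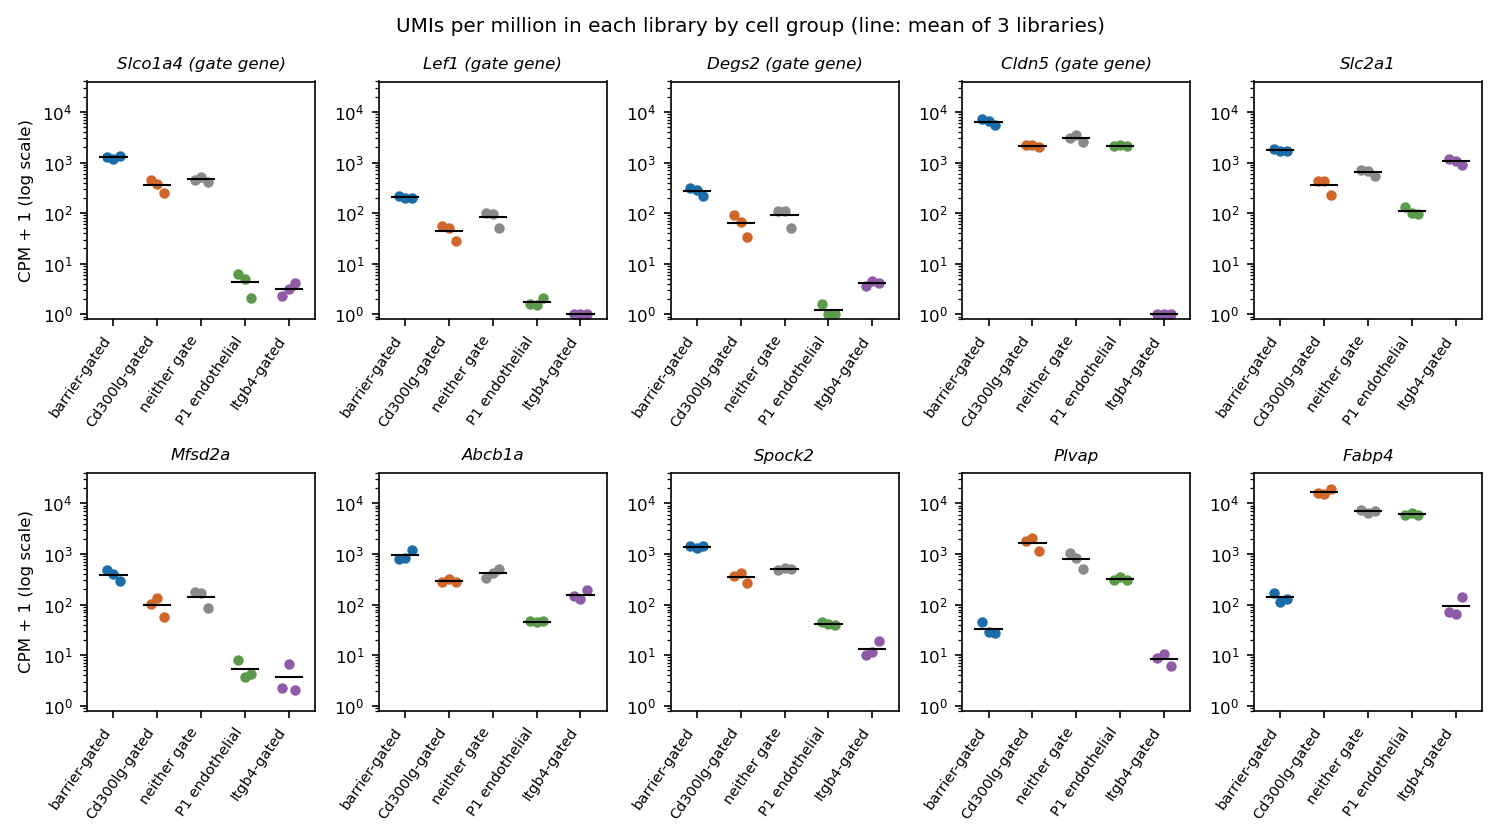
Levels in CPM plus 1, on a log scale, of 10 genes in the sums of barrier-gated, Cd300lg-gated and ungated P60 endothelial cells, P1 endothelial cells and P60 Itgb4-gated cells, with 1 point per library and the mean of 3 libraries as a line. The 4 genes marked as gate genes chose the members; Slc2a1, outside the rule, lay between 1688 and 1826 CPM in barrier-gated cells and at 226 to 437 CPM in Cd300lg-gated cells.

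The edges of the gate were examined with genes outside the rule. Endothelial cells with no UMI of Cd300lg were divided by their summed UMIs of Slco1a4, Lef1 and Degs2. Slc2a1 averaged 139 CPM over the 3 libraries in the 224 cells with a sum of 0, 424 CPM in the 57 with a sum of 1, 1183 CPM in the 56 with a sum of 2, 1547 CPM in the 160 with 3 to 5, and 1794 CPM in the 507 with 6 or more. Plvap ran the opposite way, from 1158 and 472 CPM just outside the gate through 349 CPM at a sum of 2 to 38.7 and 22.04 CPM above it. Gpihbp1 showed no such trend, with 385 and 134 CPM outside the gate and 263, 183 and 303 CPM inside it. The step at a sum of 2 was uneven between libraries, with Plvap at 852, 27.9 and 168 CPM in the 9, 17 and 30 cells of replicates 1, 2 and 3. A median member had 10, 10 and 7 such UMIs, so most members lay well inside the edge.

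Cells that carried both signatures resembled the members in the genes given next, but not in Gpihbp1. In the 58 cells with at least 2 UMIs of the selecting genes and at least 2 of Cd300lg, which the rule places in the comparison group, Slc2a1 averaged 1322 CPM, Spock2 1332 CPM, Abcb1a 853 CPM and Plvap 16.2 CPM. The 103 cells with 1 UMI of Cd300lg, which the rule leaves in neither group, had Slc2a1 at 1693 CPM and Plvap at 14.5 CPM. Gpihbp1 averaged 641 CPM in the 58 cells and 573 CPM in the 103. In members it averaged 263, 183 and 303 CPM at sums of 2, 3 to 5 and 6 or more. Differences between the groups are therefore given in 2 forms where this matters, against all 379 Cd300lg-gated cells and against the 321 of them with at most 1 UMI of Slco1a4, Lef1 and Degs2. The latter leaves out cells that carry the selecting genes, so a larger rise against it follows from how it was made.

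**Figure D2:**
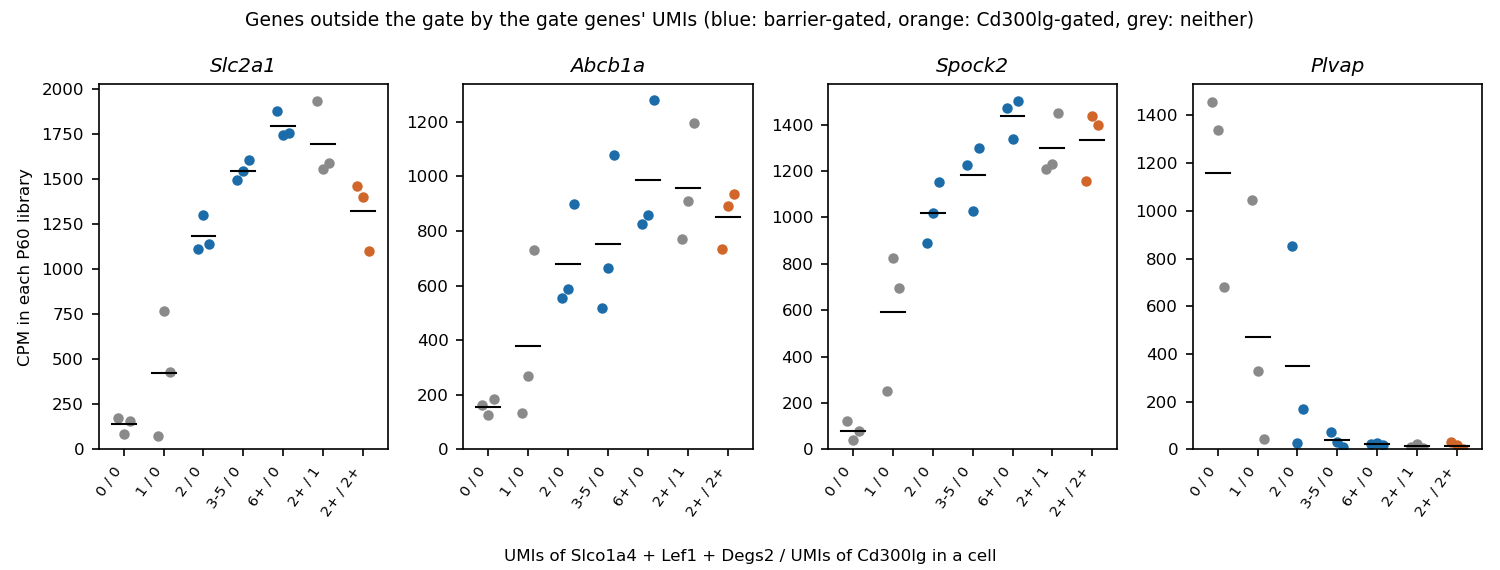
CPM of 4 genes outside the rule in each P60 library (1 point per library, mean as a line), with endothelial cells divided by their UMIs of Slco1a4, Lef1 and Degs2 together and by their UMIs of Cd300lg. Slc2a1 climbed from a mean of 139 to 1794 CPM as the selecting genes rose in cells without Cd300lg, and the 58 cells with both stood at 1322 CPM. Median UMIs per cell differed between these divisions.

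Expression was compared between barrier-gated and Cd300lg-gated cells with edgeR's quasi-likelihood test on the UMIs summed per library, pairing both sums of a library. Of 8545 genes tested, 992 were higher in barrier-gated cells (11.6%) and 983 lower (11.5%) at a Benjamini-Hochberg adjusted p of 0.05, together 23.1% of the genes, and the median log2 change over all genes was 0.01. Since the same UMIs placed the cells, the gate was also set on a random 50% of each cell's UMIs and levels were summed from the remainder, and 1039 of 6022 genes were then called. Slc2a1 differed by 2.72 ± 0.12 (SE) on the log2 scale in that form, Mal by 2.78 ± 0.14, Abcb1a by 1.66 ± 0.13, Plvap by -6.16 ± 0.15 and Fabp4 by -7.66 ± 0.13.

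**Figure D3:**
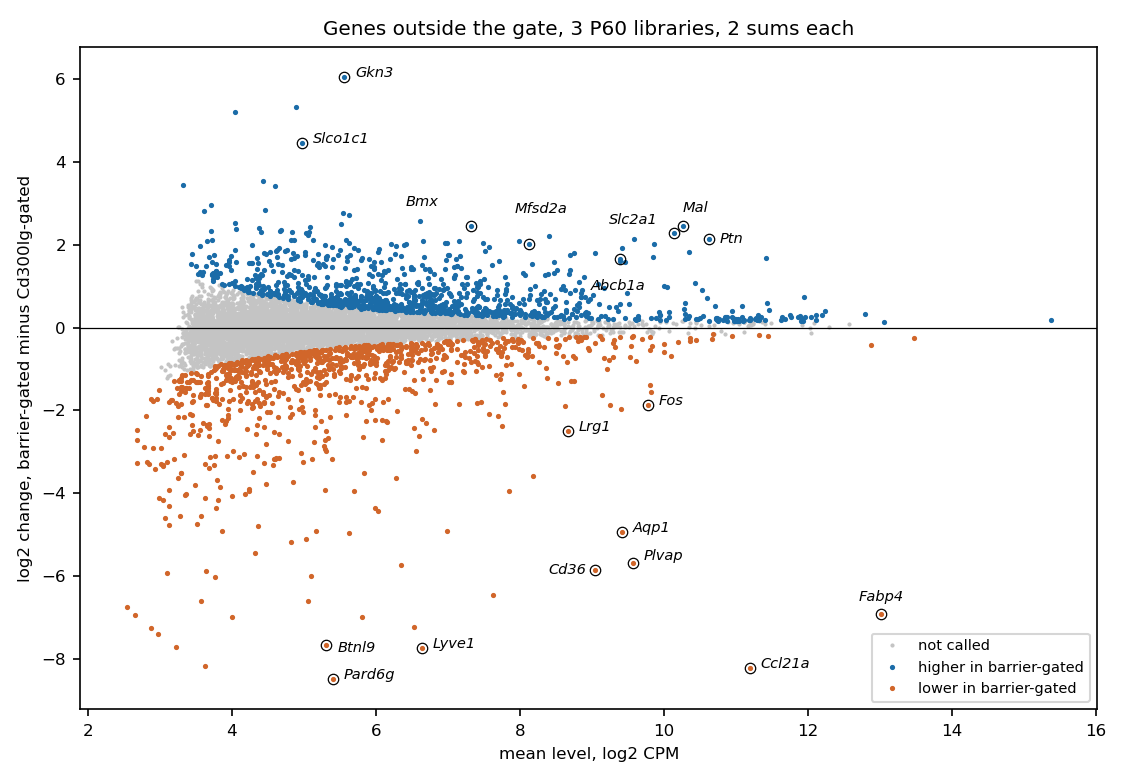
Log2 change between barrier-gated and Cd300lg-gated cells (positive values are higher in barrier-gated cells) against the mean level in log2 CPM for the 8545 genes tested, with called genes in blue (992 higher) and orange (983 lower). The falls reach farther from 0 than the rises, with Fabp4 at -6.91 and Slc2a1 at 2.29.

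Slc2a1, the endothelial and perineurial glucose transporter, was the one naming gene outside the rule and was among the 15 largest rises. It measured 1826, 1703 and 1688 CPM in barrier-gated and 436, 430 and 226 CPM in Cd300lg-gated cells, 4.78-fold on the means (log2 change 2.29 ± 0.08, SE; edgeR, adjusted p = 1.69e-83), and 5.69 on the log2 scale against cells with at most 1 UMI of the selecting genes. The lowest barrier-gated library lay far above the highest Cd300lg-gated one. P60 cells gated on Itgb4 without endothelial UMIs, the perineurial kind in which GLUT1 is also known, had 1048 CPM on average, endothelial cells of P1 109 CPM and P60 cells without endothelial UMIs 132 CPM. Cells were thinned to 1500 UMIs each to compare shares of cells at equal depth, which left out 3 members and 1 comparison cell. In thinned cells, 85.3%, 84.8% and 83.6% of members had a Slc2a1 UMI, against 17.2%, 21.5% and 11.5% of Cd300lg-gated cells. In cells without endothelial UMIs the share was 8.83% to 11.3%. Without thinning the members' shares were 96.7%, 97.3% and 95.8%.

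Carriers of nutrients and organic anions rose more often than they fell. Of 29 tested carriers outside the rule, 16 were higher (55.2%) and 5 lower (17.2%), beside 11.6% and 11.5% of all genes. The median log2 change was 0.71 beside 0.01 over all genes. Mfsd2a, which carries lysophospholipids bearing docosahexaenoic acid and restrains transcytosis in brain endothelium, measured 478, 405 and 293 against 99.6, 137 and 55.5 CPM (log2 change 2.01 ± 0.11) and averaged 4.3 CPM at P1. Both subunits of the large neutral amino acid transporter were higher, Slc7a5 at 366, 347 and 352 against 110, 66.7 and 84.2 CPM (2.09 ± 0.12) and its heavy chain Slc3a2 at 1485, 1460 and 1079 against 783, 750 and 557 CPM (0.99 ± 0.07). Slc7a1, a cationic amino acid transporter, measured 223, 253 and 302 against 87.3, 58.5 and 60.9 CPM (1.95 ± 0.13). The groups were separate in all 4 carriers, beside 11.1% of the genes tested that were separate and higher in the members and 14.6% separate and lower. Slco1c1, a carrier of thyroid hormone and organic anions at the blood-brain barrier, was low but almost limited to the members, at 53.8, 44 and 31.5 against 1.53, 2.34 and 1.79 CPM (4.45 ± 0.42, adjusted p = 1.6e-20). Slc16a4 (1.85 ± 0.13), a monocarboxylate transporter family member, and Slc39a8 (1.78 ± 0.26), a metal ion importer, also rose, while the prostaglandin carrier Slco2a1 fell by 2.26. Slc38a5, a glutamine carrier of brain endothelium, had no UMI in any of the 6 sums.

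Efflux pumps were divided. Of 8 tested ABC transporters, 3 were higher and 3 lower (37.5% each, beside 11.6% and 11.5% of all genes). The median log2 change was 0.01. Abcb1a, one of the 2 mouse genes for P-glycoprotein, measured 790, 826 and 1215 CPM in barrier-gated and 285, 322 and 283 CPM in Cd300lg-gated cells (log2 change 1.67 ± 0.08, SE; edgeR, adjusted p = 9.09e-53). Abcg2, the breast cancer resistance protein pump, measured 1904, 2001 and 1647 against 1097, 1201 and 743 CPM (0.92 ± 0.07). Abcc4, a pump of organic anions, rose by 0.79 ± 0.24 and averaged 37.8 CPM, but did not pass without replicate 2 (edgeR, adjusted p = 0.0926). Abcb1b, the other P-glycoprotein gene, fell by 1.41 on the log2 scale (adjusted p = 0.0691 without replicate 3), and the cholesterol exporter Abca1 fell by 1.71. At P1, Abcb1a and Abcg2 averaged 45 and 277 CPM. Members with an Abcb1a UMI after thinning made up 65.8%, 65.2% and 78.6% of cells in the 3 libraries, against a mean of 24.6% ± 3.997 of Cd300lg-gated cells.

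Junction genes outside Cldn5 and Cdh5 did not move one way. Of 19 tested tight and adherens junction genes 6 were higher and 4 lower (31.6% and 21.1%, beside 11.6% and 11.5% of all genes). The median log2 change was -0.08. Tjp1, the scaffold ZO-1, measured 323, 299 and 408 against 162, 178 and 215 CPM (0.92 ± 0.10). Esam, an endothelial adhesion molecule of the tight junction, measured 1697, 1616 and 1060 against 1115, 1098 and 738 CPM (0.60 ± 0.07), and the 2 groups overlapped in replicate 3 of the members against replicates 1 and 2 of the comparison cells. Cgnl1, a scaffold protein of junctions, also rose (1.28 ± 0.18). Lsr, a component of tricellular junctions known from the blood-brain barrier, was the most raised of the list, at 281, 276 and 177 against 65.9, 79.6 and 32.2 CPM (2.05 ± 0.13). Ocln, the tight junction protein occludin, was too low for the test, with 45 UMIs against 3 in all, a ratio of CPM over all 3 libraries of 6.82 (95% exact interval of counting error 2.19 to 34.3). Jam2 (-0.17 ± 0.09, adjusted p = 0.175) and Ctnnb1 (0.07 ± 0.09, adjusted p = 0.678) did not pass the edgeR test. Pard6g, a polarity protein, had 1 UMI in the members and 249 in the Cd300lg-gated cells, a ratio of CPM over all 3 libraries of 547 in favour of the latter (counting interval 97.3 to 21710).

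Genes of vesicular and receptor-mediated transport were mostly lower. Of 17 tested, 4 were higher and 9 lower in barrier-gated cells (23.5% and 52.9%, beside 11.6% and 11.5% of all genes). The median log2 change was -0.36. Plvap, the diaphragm protein, had the most negative change of the list, at 44.5, 27.3 and 26 against 1824, 2052 and 1132 CPM (-5.67 ± 0.10; edgeR, adjusted p = 2.94e-147). A Plvap UMI was present in 6.0%, 3.9% and 2.9% of thinned members and in a mean of 52.5% ± 5.74 of Cd300lg-gated cells. Scarb1, a lipoprotein receptor, measured 260, 208 and 206 against 564, 616 and 548 CPM (-1.33 ± 0.09). Caveolar coat genes differed little in comparison, with Cavin1 at -0.48 ± 0.08 and Cavin2 at -0.39 ± 0.07 on the log2 scale, and Cav2 did not pass (0.09 ± 0.09, adjusted p = 0.535). Tfrc, the transferrin receptor of brain endothelium, averaged 8.73 CPM in the members and was not tested.

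Genes of the Wnt/beta-catenin pathway other than Lef1 rose more often than they fell. Of 16 tested, 9 were higher and 4 lower (56.2% and 25%, beside 11.6% and 11.5% of all genes). The median log2 change was 0.75. Axin2, a feedback target of the pathway, measured 101, 81.8 and 126 against 30.6, 22.2 and 26.9 CPM (1.97 ± 0.19; edgeR, adjusted p = 9.59e-21) and averaged 2.21 CPM at P1. Nkd1, also a feedback inhibitor, measured 118, 104 and 92.3 against 52.1, 29.3 and 16.1 CPM (1.72 ± 0.18). Sox17, an endothelial transcription factor linked to Wnt signalling in brain vessels, measured 817, 686 and 642 against 351, 426 and 342 CPM (0.97 ± 0.08), and the coreceptor Lrp6 67.1, 66.2 and 87.5 against 38.3, 45.6 and 62.7 CPM (0.63 ± 0.17). The factor Tcf7 (1.72 ± 0.25) and the target Tnfrsf19 (2.11 ± 0.24) rose too. Against cells with at most 1 UMI of the selecting genes, Axin2 rose by 5.66 and Nkd1 by 4.19. The receptor Fzd4, at 98.3, 110 and 144 against 122, 144 and 265 CPM, was lower (-0.52 ± 0.12), with an adjusted p of 0.112 without replicate 3, and its coactivator Tspan12 fell by 0.67, with an adjusted p of 0.0777 without replicate 2. Apcdd1, a Wnt inhibitor of brain endothelium, had 5 UMIs in all members together. Axin2 was found in 13.0%, 12.1% and 12.5% of thinned members, so a UMI of this target was seen in a minority of the cells.

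Endothelial transcription factors rose and fell in like numbers, 9 and 12 of 29 tested (31% and 41.4%, beside 11.6% and 11.5% of all genes). Foxq1, a forkhead factor of brain endothelium, averaged 85.2 CPM in the members, 23.4 CPM in the Cd300lg-gated cells and 0.185 CPM at P1 (1.91 ± 0.20). Mecom, a factor of arterial and endothelial identity, measured 277, 277 and 449 against 172, 192 and 215 CPM (0.80 ± 0.10). Tcf15, a factor of capillaries in heart and muscle, and the homeobox factor Meox1 fell by 4.43 and 3.92, and Mef2c measured 249, 238 and 284 against 674, 535 and 756 CPM (-1.29 ± 0.08). Foxf2, a factor of the blood-brain barrier, had 5 UMIs in the members and none in the comparison cells.

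A list of genes known from brain endothelium had 22 of 32 tested members higher and 6 lower, with a median log2 change of 0.88. The shares were 68.8% and 18.8%, beside 11.6% and 11.5% of all genes. This list is not independent of the choice of the cells, whose naming genes are of the same kind. Spock2, a matrix proteoglycan, measured 1437, 1289 and 1438 against 360, 417 and 270 CPM (2.01 ± 0.08; edgeR, adjusted p = 1.01e-71), and Ptn, the growth factor pleiotrophin, 2546, 2474 and 2227 against 630, 670 and 399 CPM (2.14 ± 0.07). Bsg, the basigin chaperone of monocarboxylate transporters, measured 4083, 3963 and 4006 against 1343, 1435 and 1114 CPM (1.67 ± 0.06), Pltp, a phospholipid transfer protein, 1440, 1399 and 1048 against 783, 798 and 421 CPM (1.01 ± 0.07), and Paqr5, a membrane progesterone receptor, 146, 130 and 132 against 24.5, 18.7 and 28.7 CPM (2.57 ± 0.18). The groups were separate in all 5 (11.1% of all genes tested, in this direction). Pglyrp1, a peptidoglycan recognition protein, averaged 981 against 269 CPM (1.92 ± 0.09). Ly6c1 and Ly6a, common endothelial surface proteins, differed by 0.30 and 0.31 (-0.046 and -0.11 with cells thinned before the gate), and Itm2a was lower, at 121 against 364 CPM (-1.54).

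The 15 largest rises among genes of at least 50 CPM also held genes with no place in the lists of transport. Mal, a lipid raft protein best known from myelin and epithelia, was at 1901, 1977 and 1927 CPM in the members and 406, 439 and 242 CPM in the comparison cells (2.45 ± 0.08; edgeR, adjusted p = 8.23e-91). Its level in P60 cells without endothelial UMIs averaged 45.4 CPM. Pllp, the related plasmolipin, measured 190, 174 and 138 against 65.9, 41 and 17.9 CPM (2.04 ± 0.15). Plat, tissue plasminogen activator, measured 510, 411 and 548 against 113, 111 and 94.9 CPM (2.20 ± 0.11), and Mgp, the matrix Gla protein, 1166, 1248 and 1025 against 336, 356 and 108 CPM (2.15 ± 0.09). Mgp averaged 1411 CPM in the endothelial cells of neither group, so a high level did not set the members apart from those. The others were Grb14, an adaptor of insulin signalling (2.10 ± 0.17), Sbspon (2.10 ± 0.14), Gstm7, a glutathione transferase (2.03 ± 0.15), and Lrrc49 (2.02 ± 0.19), with Slc2a1, Paqr5, Bmx, Ptn, Slc7a5, Lsr and Spock2 given elsewhere. Against cells with at most 1 UMI of the selecting genes, the log2 change of Mal was 7.99, of Grb14 5.69, of Paqr5 7.502 and of Spock2 5.93.

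Genes of capillaries that take up fatty acids were nearly all lower in the barrier-gated cells. Of 26 tested, 20 were lower and 1 higher (76.9% and 3.85%, beside 11.5% and 11.6% of all genes). The median log2 change was -2.06. Fabp4, a cytosolic fatty acid carrier, measured 172, 111 and 129 CPM in the members and 15790, 15430 and 19320 CPM in the Cd300lg-gated cells, 123-fold on the means (-6.91 ± 0.08; edgeR, adjusted p = 1.57e-205). Cd36, the fatty acid translocase, measured 25, 12.8 and 26.7 against 1002, 1059 and 1675 CPM (-5.84 ± 0.11). Fabp5 measured 5.46, 5.57 and 5.47 against 541, 460 and 539 CPM (-6.46 ± 0.16), the glycerol channel Aqp7 2.34, 0.556 and 0.684 against 181, 125 and 179 CPM (-6.98 ± 0.28), and the water channel Aqp1 50.7, 44.5 and 49.9 against 1464, 1738 and 1318 CPM (-4.93 ± 0.10). None of these 5 genes had overlapping groups, beside 14.6% of all genes tested that were separate and lower. Gpihbp1, the anchor of lipoprotein lipase, fell less, from 1250, 1211 and 1055 to 294, 357 and 221 CPM (-1.98 ± 0.08), and Pparg, a regulator of lipid uptake, fell by 3.49. Btnl9 had 2 UMIs in the members and 233 in the comparison cells, a ratio of CPM over all 3 libraries of 256 in favour of the latter (counting interval 70.1 to 2127). The member of the list that rose was Car4, a membrane-bound carbonic anhydrase of capillaries, at 950, 1009 and 656 against 597, 486 and 419 CPM (0.84 ± 0.08). P1 endothelial cells had Fabp4 at 6049, Cd36 at 852 and Gpihbp1 at 1810 CPM, so these genes were high in the newborn nerve.

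**Figure D4:**
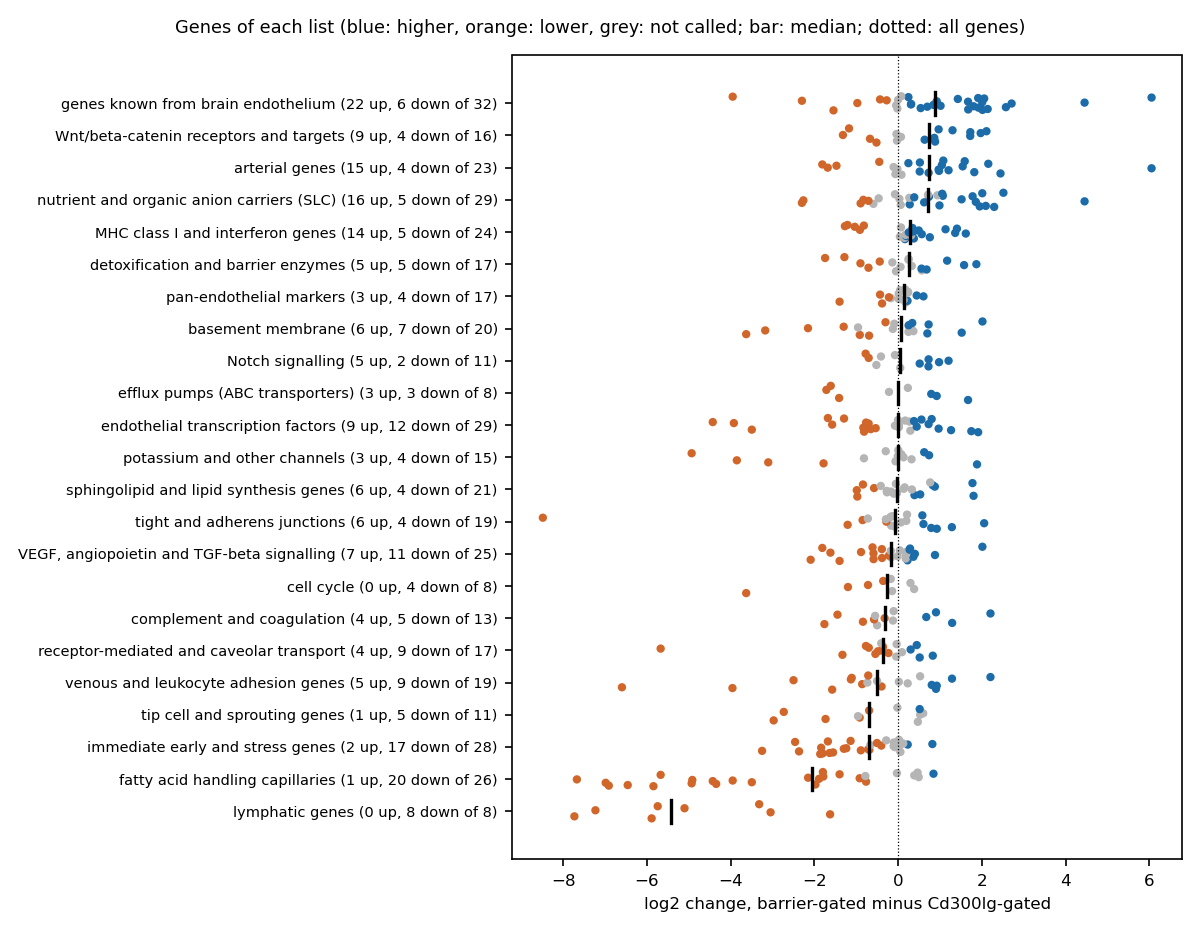
Log2 change of every tested gene in each list between barrier-gated and Cd300lg-gated cells, with genes higher in barrier-gated cells in blue, lower in orange and not called in grey, the list's median as a bar and the median of all genes as a dotted line. The list of brain endothelium has a median of 0.88, that of fatty acid capillaries -2.06 and that of lymphatic genes -5.42.

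Arterial genes were more often higher and venous genes more often lower, with exceptions in both lists. Of 23 arterial genes 15 were higher and 4 lower (65.2% and 17.4%, median log2 change 0.73). Of 19 genes of veins and leukocyte adhesion 5 were higher and 9 lower (26.3% and 47.4%, median -0.50). Over all genes the shares were 11.6% and 11.5%. Bmx, a kinase of arterial endothelium, measured 240, 214 and 219 against 44.4, 38.6 and 44.8 CPM (2.44 ± 0.14; edgeR, adjusted p = 2.35e-43). Edn1, encoding endothelin 1, measured 384, 335 and 432 against 104, 166 and 124 CPM (1.54 ± 0.11), and Tsc22d1 1785, 1851 and 1706 against 888, 1062 and 664 CPM (1.08 ± 0.07). Sema3g, a semaphorin of arteries, rose by 1.82 ± 0.20. Gkn3, an arterial gene of brain, had 309 UMIs in the members and 2 in the comparison cells (65, 195 and 49 UMIs in replicates 1, 2 and 3), a ratio of CPM over all 3 libraries of 70.3 with a counting interval of 19.3 to 583. Without thinning, a Gkn3 UMI was found in 15.2%, 14.8% and 7.07% of members. Of all P60 endothelial cells it was found in 8.27%, 9.5% and 6.37%, so cells of neither group carried Gkn3 too. Among venous genes, Vwf, von Willebrand factor, was higher at 442, 464 and 529 against 262, 311 and 202 CPM (0.90 ± 0.09), as were Vcam1 (0.80 ± 0.14) and Lcn2 (0.92 ± 0.09). Ackr1, the chemokine receptor of venules, fell by 3.96, Selp, P-selectin, by 6.60 and Lrg1 by 2.50.

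Arterial and venous genes were also counted in single cells. After thinning, 43.0% ± 1.82 (SD, n = 3) of members had a UMI of Bmx, Gja5, Gkn3, Sema3g or Hey1 and 49.98% ± 5.33 a UMI of Ackr1, Selp, Vwf, Nr2f2 or Slc38a5, against 9.39% ± 1.29 and 38.5% ± 3.89 of Cd300lg-gated cells. The venous share rests on Vwf, at 46.5% of members against 21.5%, while Ackr1 (0.737% against 8.24%), Selp (0.119% against 7.71%) and Nr2f2 (7.78% against 19.1%) were found in fewer members. These 2 sets of genes were picked after the data had been seen. Both kinds were found together in 32 of 184, 49 of 256 and 63 of 280 members, and the log2 odds ratios of finding one kind with the other were -0.81, -0.18 and -0.27. In the Cd300lg-gated cells they were -0.10, 0.98 and -1.29. The members' values took both signs with cells thinned to 1000 UMIs (0.30, -0.72 and -0.39) and without thinning (-0.49 to 1.004), so no direction is read from them. Over the whole lists nearly all cells had a UMI, which leaves little room for a difference (arterial 99.8% against 99.4%, venous 97.9% against 96.6%), and these differences of 0.41 and 1.33 percentage points did not exceed their spread between libraries (exact paired permutation test, 2-sided p = 1.0 and 0.5, where 3 pairs cannot give less than 0.25). With cells thinned to 1000 UMIs the differences were 2.45 ± 0.35 points for arterial and 5.41 ± 2.83 points (SD, n = 3) for venous genes, larger than their spread, with an exact permutation p of 0.25 each. Lymphatic genes were found in 5.69% ± 1.57 of members and 19.96% ± 1.99 of comparison cells, 14.3 points fewer, and genes of tip cells and sprouting in 49.97% ± 5.65 and 67.6% ± 1.66, 17.7 points fewer. Both differences ran the same way in 3 of 3 libraries (exact p = 0.25, the lowest possible). Cell cycle genes were found in 67.1% ± 5.08 and 65.4% ± 7.57 (exact p = 0.75), but the proliferation markers Mki67 and Top2a in 0% and 0.119% of members.

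**Figure D5:**
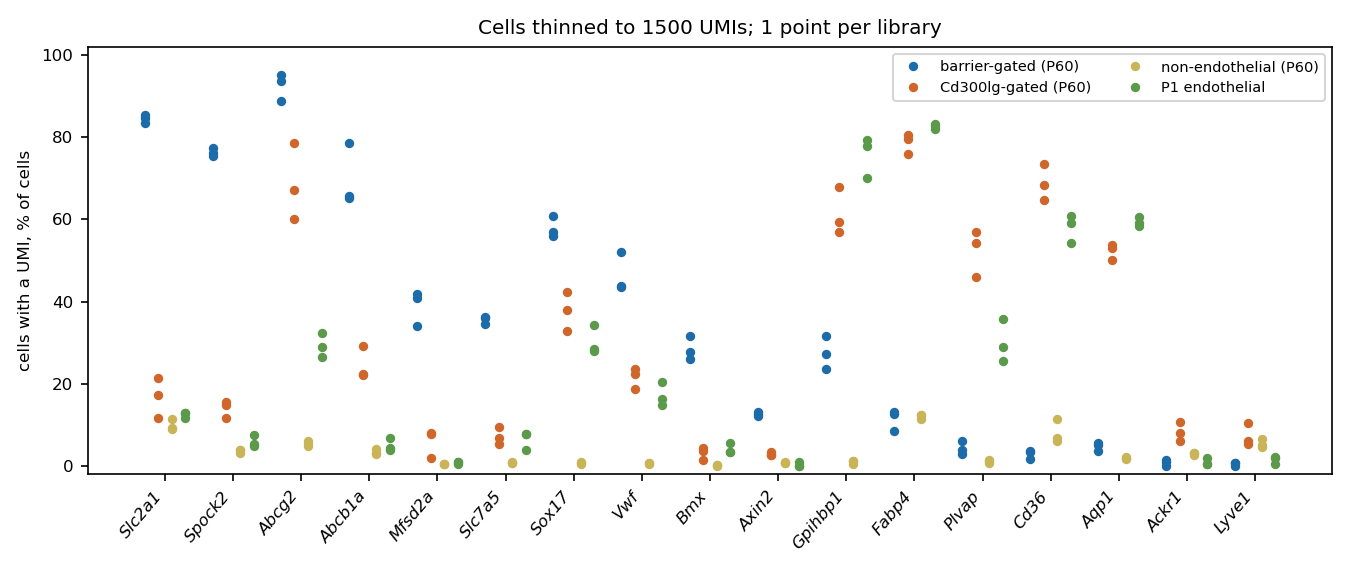
Share of cells with at least 1 UMI of each gene after thinning every cell to 1500 UMIs, with 1 point per library for barrier-gated, Cd300lg-gated and non-endothelial P60 cells and for P1 endothelial cells. Slc2a1 was found in 83.6% to 85.3% of barrier-gated cells and Plvap in 2.9% to 6.0%.

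Lymphatic and immune genes were lower in the barrier-gated cells, and the comparison group held cells with such genes. All 8 tested lymphatic genes were lower (median -5.42), beside 11.5% of all genes. Their list summed to 35.6 to 48.6 CPM in barrier-gated against 700 to 1337 CPM in Cd300lg-gated sums. The filter kept genes that were high enough in either group. Genes this low in the members passed it largely through the comparison cells, so nothing is read from all of them being lower. Cells with at least 2 UMIs of Lyve1, Mmrn1, Prox1 and Reln together numbered 2 among members and 34 among comparison cells. When they were left out, an alternative added after the data had been seen, 1 of 2 lymphatic genes still tested was lower, and Ccl21a, a chemokine with near-identical gene copies, went from -8.22 to -0.38 (edgeR, adjusted p = 0.481). With these cells left out, 20 of 26 fatty acid genes were lower and 19 of 33 brain endothelial genes higher. Of all genes, 9.43% were lower and 9.4% higher in that form. All 9 tested immune genes were lower in the main comparison (median -1.72), beside 11.5% of all genes. The immune markers summed to 202 to 311 CPM against 386 to 1656 CPM, with the high end in replicate 1. There Retnla, a macrophage gene, measured 758 CPM in Cd300lg-gated cells, against 94.8 and 179 CPM in replicates 2 and 3. The part of such cells in the other falls was not tested.

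Markers of fibroblasts, perineurial cells and Schwann cells in the members were low. Those of pericytes and smooth muscle came closer to the cells without endothelial UMIs, and exceeded the Cd300lg-gated cells only with Acta2 included. Fibroblast markers summed to 966 to 1373 CPM in barrier-gated and 964 to 1512 CPM in Cd300lg-gated cells. In cells without endothelial UMIs they summed to 38080 to 57890 CPM. None of 8 tested was called, beside 23.1% of all genes, too few to read a result from. The fibroblast sum includes Dcn, and that of pericytes and smooth muscle includes Pdgfrb and Rgs5. The rule capped these genes in both gated groups, so part of the gap to cells without endothelial UMIs was set by it. There Dcn alone measured 18900, 16720 and 11940 CPM. Perineurial markers outside Slc2a1 and Itga6 summed to 70.5 to 86.8 against 57.3 to 96.0 CPM, with 3376 to 4030 CPM in Itgb4-gated cells. Itgb4, which chose those cells, is in that sum. Schwann markers summed to 185 to 335 against 129 to 222 CPM. Haemoglobin and other erythroid genes reached 3120 CPM in barrier-gated and 8891 CPM in Cd300lg-gated cells of replicate 2 and at most 15.3 CPM in the sums of the other 2 libraries. Acta2, smooth muscle actin, was higher in the members at 1258, 1647 and 1012 against 449, 489 and 299 CPM (1.70 ± 0.08), a level like that of cells without endothelial UMIs (1104 CPM). Tagln, also of smooth muscle, did not pass (0.02 ± 0.08, adjusted p = 0.899), and Myh11, the defining smooth muscle myosin, had 23 UMIs against 9, a ratio of CPM over all 3 libraries of 1.16 (counting interval 0.518 to 2.86). All 14 pericyte and smooth muscle markers had UMIs in both groups and summed to 1624 to 2460 CPM in barrier-gated and 1024 to 1380 CPM in Cd300lg-gated cells, against 1988 to 3955 CPM in cells without endothelial UMIs. Without Acta2 the other 13 summed to 612 to 814 against 725 to 891 CPM, with 1125 to 2319 CPM in cells without endothelial UMIs, a sum made after the values of Acta2 had been seen. Against cells with at most 1 UMI of the selecting genes, Acta2 rose by 4.80 and Tagln by 0.16 (edgeR, adjusted p = 0.223 for Tagln). The part of mural cells in the level of Acta2 was not tested.

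Immediate early genes were lower in the barrier-gated cells. Of 28 immediate early and stress genes, 17 were lower and 2 higher (60.7% and 7.14%, beside 11.5% and 11.6% of all genes). The median log2 change was -0.70. Fos measured 411, 313 and 484 against 1500, 1317 and 1653 CPM (-1.86 ± 0.07; edgeR, adjusted p = 4.12e-73), Junb 529, 431 and 476 against 1544, 1352 and 1438 CPM (-1.56 ± 0.07) and Jun 297, 258 and 324 against 991, 895 and 915 CPM (-1.64 ± 0.08). Egr1 fell by 2.37. These genes respond to dissociation as well as to signals in tissue, and which of the 2 set their levels was not tested. Jund did not pass (0.05 ± 0.07, adjusted p = 0.691).

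In the list of interferon-stimulated and MHC genes, 14 of 24 were higher (58.3%) and 5 lower (20.8%), beside 11.6% and 11.5% of all genes. The median log2 change was 0.28. Isg15, a ubiquitin-like interferon product, measured 594, 506 and 559 against 233, 202 and 208 CPM (1.40 ± 0.09; edgeR, adjusted p = 4.18e-37), and Bst2, tetherin, 869, 816 and 824 against 580, 570 and 596 CPM (0.56 ± 0.07). Ifit1 averaged 277 against 95.6 CPM (1.61 ± 0.12). The 5 that fell were Irf1, Cd74 and 3 MHC class II genes, and MHC class II is borne chiefly by immune cells. The class I genes differed little. H2-K1 rose by 0.37 ± 0.07, but did not pass with cells thinned before the gate (edgeR, adjusted p = 0.292) or without the replicate block (0.11). B2m and H2-D1 rose by 0.19 and 0.16. With cells thinned before the gate they turned to -0.021 and -0.29 (edgeR, adjusted p = 0.927 and 0.0237).

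Growth factor receptors were lower in part. Of 25 genes of VEGF, angiopoietin and TGF-beta signalling, 7 were higher and 11 lower (28% and 44%, median -0.17). This stands beside 11.6% higher and 11.5% lower over all genes, as do the Notch and sprouting lists below. Kdr, the main VEGF receptor, measured 143, 156 and 174 against 378, 358 and 573 CPM (-1.40 ± 0.09; edgeR, adjusted p = 1.65e-35), whereas Flt1, the decoy receptor, differed by 0.22 ± 0.07 (adjusted p = 0.214 without replicate 1) and Acvrl1, a receptor of BMP9, measured 465, 401 and 296 against 254, 219 and 176 CPM (0.88 ± 0.09). Of 11 Notch genes 5 were higher and 2 lower, among them the ligand Jag2 at 117, 128 and 139 against 65.9, 58.5 and 44.8 CPM (1.20 ± 0.15) and the modifier Lfng, which fell by 0.78. Of 11 tip cell and sprouting genes 1 was higher and 5 lower, with Aplnr, the apelin receptor, at 23.4, 24.5 and 30.1 against 276, 197 and 168 CPM (-2.97 ± 0.15) and Esm1 at 43.7, 34.5 and 23.3 against 85.8, 126 and 132 CPM (-1.74 ± 0.16).

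Basement membrane genes were split, 6 higher and 7 lower of 20 (30% and 35%). This stands beside 11.6% higher and 11.5% lower over all genes, as do the lists that follow. The collagen IV chains Col4a1 and Col4a2 were lower, at 184, 205 and 265 against 342, 339 and 405 CPM (-0.69 ± 0.09) and 140, 134 and 146 against 251, 247 and 322 CPM (-0.92 ± 0.10), and Sparcl1, a matricellular protein, was higher at 1925, 1814 and 1891 against 1155, 1238 and 1098 CPM (0.73 ± 0.06). Among enzymes of detoxification 5 of 17 were higher and 5 lower. Maoa, monoamine oxidase A, measured 527, 498 and 408 against 182, 201 and 106 CPM (1.57 ± 0.10; edgeR, adjusted p = 1.94e-39). Of 21 genes of sphingolipid and lipid synthesis outside Degs2, 6 were higher and 4 lower, with the sphingomyelin synthase Sgms1 at 507, 469 and 843 against 175, 159 and 186 CPM (1.80 ± 0.10) and the desaturase Degs1, the close relative of Degs2, at 92.8, 90.2 and 45.8 against 172, 177 and 113 CPM (-0.98 ± 0.13). Complement and coagulation genes (4 higher, 5 lower of 13) included Cd59a, an inhibitor of complement lysis, at 468, 407 and 424 against 192, 202 and 145 CPM (1.29 ± 0.10). Channels numbered 3 higher and 4 lower of 15, with Clic4 at 506, 548 and 575 against 311, 321 and 378 CPM (0.74 ± 0.08). General endothelial markers outside the rule had 3 higher and 4 lower of 17 (17.6% and 23.5%), beside 11.6% and 11.5% of all genes tested. The 10 not called included Emcn at 0.02 ± 0.07 and Egfl7 at 0.13 ± 0.07, with edgeR adjusted p of 0.925 and 0.15.

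The genes whose levels ran most like the 3 selecting genes over 18 sums, those of 6 cell groups with 3 libraries each, were found among 5430 genes by Pearson correlation of log2(CPM + 10). For Slco1a4 they were Ch25h (r = 0.993), Fas (0.989), Spock2 (0.986), Mfsd2a (0.986) and Apol10b (0.982). For Lef1 they were Mfsd2a (0.994), Elovl7 (0.989), Pcp4l1 (0.987), Ch25h (0.987) and Srarp (0.987), and for Degs2 Mfsd2a (0.992), Pcp4l1 (0.987), Srarp (0.983), Ch25h (0.982) and Gstm7 (0.979). The sums share libraries, and the sums from 1 library differ in cell type, so these values describe a shared pattern over cell groups. Ch25h, an oxysterol-producing hydroxylase, measured 136, 138 and 142 against 72, 69.1 and 28.7 CPM and averaged 1.5 CPM at P1. Fas, the death receptor, measured 327, 338 and 347 against 156, 138 and 118 CPM and 17.5 CPM at P1. Apol10b, in contrast, did not pass the test between the P60 groups (0.45 ± 0.20; edgeR, adjusted p = 0.0899), at 39.8, 48.4 and 52.7 against 39.8, 32.8 and 34 CPM.

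Newborn endothelial cells were given the same measurement without a test, since the age contrast had been seen when the selecting genes were picked. Among genes outside the rule, Mal averaged 30.2 CPM at P1 against 1935 CPM in the P60 members, Ptn 47.2 against 2416 CPM, Spock2 40.8 against 1388 CPM and Paqr5 2.21 against 136 CPM. Sox17, at 296 CPM, and Tjp1, at 137 CPM, lay closer to the adult levels of 715 and 343 CPM. At P1 the endothelial cells had Plvap at 320 CPM, between both adult groups, and Col4a1 at 1770 CPM, above both. P1 sums include the whole endothelium of the nerve, so fewer cells of a kind and less RNA per cell cannot be told apart in them.

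Genes whose values had been seen before they were named are Slco1c1, Slc16a4, Slc39a8, Slco2a1, Slc38a5, Abcc4, Abcb1b, Abca1, Cgnl1, Ocln, Tfrc, Tcf7, Tnfrsf19, Apcdd1, Foxq1, Foxf2, Tcf15, Meox1, Pglyrp1, Itm2a, Pparg, Gkn3, Sema3g, Ackr1, Vcam1, Egr1, Ifit1 and Myh11. They belong to the lists but fell below the level or rank set for naming.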

How the data were processed

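The deposited files hold counts: whole-number UMIs per gene and cell, made by the authors from 10x Chromium Single Cell 3' v2 libraries. The submitters' processing notes name Cell Ranger 2.0.2 and the mouse build GRCm38.p5. Of 24510 deposited barcodes, 24337 had 500 to 5000 genes, at both ages more than the study kept. No doublet caller was run, so doublets may remain. UMIs were summed per library and cell group and tested with edgeR 4.0.16 (R 4.3.3; TMM scaling, filterByExpr, quasi-likelihood test, Benjamini-Hochberg adjusted p below 0.05). The library entered as a replicate block because both sums of a library come from the same suspension; deviations from the group means correlated at 0.253, 0.291 and 0.518 within the 3 pairs. The filter kept a gene that was high enough in either group, so a gene near 0 in one group could be tested for its level in the other alone. The 11 genes of the rule stayed in the library sizes and were not tested. The replicates were independent suspensions of male and female mice run separately. Mice per suspension are not given in the sources used here. With the block, p-values rest on how differences between the paired sums varied over these libraries, and not on the spread between the libraries themselves. The test shares this variation over all genes tested. A very small p-value therefore does not measure how a gene's own difference varied over the 3 pairs. CPM were UMIs per 1000000 UMIs of a sum. Single cells were thinned to 1500 UMIs at random before shares of cells were compared. Intervals cover counting error only. Genes named were the 5 naming genes, the 15 largest rises and falls of at least 50 CPM with the same direction in 3 libraries, up to 8 most highly expressed members of each of 31 lists, and the 5 most correlated genes. The members, lists and genes were chosen with earlier results of these data known. Gene positions came from GENCODE M21, where 41435 of 41605 identifiers were found, and upstream sequences from RefSeq (GRCm38.p6). Alternatives included DESeq2 1.42.0, other scalings and filters, other gates, thinned cells and leaving out each library. The fit was checked on counts simulated with the same dispersion for all genes and no library effect. That check does not cover the replicate block or the choice of cells by UMIs.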

Additional observations from a re-analysis of the deposited data

How the results depend on the processing

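Of 182 named genes, 172 could be tested, of which 78 were higher, 55 lower and 39 not called. The count of 1975 called genes (992 higher, 983 lower) fell to 825 with DESeq2 (359 and 466) and to 925 without the replicate block (385 and 540), that is, when the 2 sums of a library were not paired. It was 495 (279 and 216) of 2664 genes when cells were thinned to 1500 UMIs before the gate, 1039 (527 and 512) of 6022 with the gate set on 50% of the UMIs, 938 (472 and 466) of 4735 without cells that carried 3 or more UMIs of other cell types and 697 (327 and 370) of 4383 with 50 cells per library and group, all of which test fewer UMIs or genes. Leaving out 1 library at a time gave 1342 to 1637 calls, 632 to 782 higher and 710 to 855 lower. Other scaling, no filter, a gate of 4 UMIs, a mitochondrial limit and comparison cells without the selecting genes or without lymphatic UMIs kept the total within 1.5 times. The barrier-gated share of endothelial cells, 44.8%, became 41.5% and 37.7% with at least 3 and 4 UMIs of the selecting genes and 51.03% with 1 UMI of Cd300lg allowed, and ranged from 44.1% to 45.2% over libraries left out, with 440 to 539 members. The arterial difference of 0.41 points ranged from -0.27 (without replicate 3) to 0.885, the venous difference of 1.33 points from 0.23 (without replicate 3; 0.56 without replicate 2) to 3.19 (without replicate 1) and the cell cycle difference of 1.72 points from -2.09 (without replicate 1) to 6.10 over libraries left out. Of 199 genes followed under the alternatives, 44 lost their call without the replicate block and 37 with DESeq2, with the same direction. With cells thinned before the gate, 37 of 166 still tested lost it, and 25 of 186 without cells carrying other cell types' UMIs. Over all called genes, 45 of the 951 still tested changed sign with cells thinned before the gate. At most 13 did so under any other alternative. Among the genes followed, small changes turned sign with cells thinned before the gate. These were B2m (-0.021), H2-D1 (-0.29, edgeR adjusted p = 0.0237), Id1 (-0.15), Ly6a (-0.11), Ly6c1 (-0.046) and Slc6a6 (-0.35). Without cells carrying other cell types' UMIs, H2-D1 (-0.019), Slc6a6 (-0.018) and Pmp22 (-0.29) turned sign. Hbb-bs went to 0.33 with DESeq2. The cause was not tested. Depth limits Foxf2, Apcdd1 and Tfrc, whose levels of a few CPM cannot be compared.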

Other observations

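The endothelial cells that belonged to neither group were not uniform. Of the 520, 224 had no UMI of Slco1a4, Lef1, Degs2 or Cd300lg, and in these Plvap averaged 1158 CPM and Cldn5 1518 CPM, against 6469 CPM of Cldn5 in barrier-gated cells. Cells with at least 2 UMIs of Lyve1, Mmrn1, Prox1 and Reln together numbered 17, 32 and 39 among the neither-gated cells of replicates 1, 2 and 3. Lymphatic genes summed there to 1293 to 1737 CPM. The 103 cells of this group with at least 2 UMIs of the selecting genes and 1 UMI of Cd300lg had Cldn5 at 5654 CPM and Spock2 at 1297 CPM, beside 1388 CPM of Spock2 in the barrier-gated cells.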
